A study of Mus musculus with 2 samples.

Results

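The cells described here are inhibitory neurons of the embryonic mouse brain, that is, neurons that carried mRNA of at least 1 of the 3 genes for making and packaging the transmitter GABA. Of the cells that passed the quality filters, 352 of 11212 were such neurons, 101 in the control and 251 in the mutant library. A cell was taken as a neuron when Elavl3 and Stmn2, both broadly expressed in young neurons, had 3 or more UMIs together. It was taken as inhibitory when Gad1, Gad2 and Slc32a1 had at least 1 UMI together. Cells with UMIs of both Isl1 and Pou4f1 (sensory ganglion neurons), with more than 1 UMI of Barhl1, Atoh1 and Evx1 together (rhombic-lip and dorsal neurons), with more than 1 UMI of Prrx1, Prrx2 and Twist1 together (mesenchyme) or with any UMI of Sox10 (glia) were left out. The UMI, a molecular barcode added before amplification, makes each captured mRNA count once. Membership was thus chosen by the measured UMIs of these gate genes in the same cells, and the values of the gate genes below are a description.

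Single-cell RNA-seq was performed on GFP-positive cells sorted from heads of E11.5 embryos, to examine what cranial neural crest cells do without Tfap2a and Tfap2b, which encode AP-2 transcription factors. The control library (Tfap2HET) came from embryos with 1 floxed and 1 wild-type allele of each gene, and the mutant library (Tfap2NCKO) from siblings with floxed alleles only. All embryos carried the Wnt1:CRE transgene and 2 copies of the mTmG reporter, which turns cells from membrane tomato to membrane GFP after recombination. Wnt1:CRE acts in the dorsal neural tube, and therefore labels brain neurons beside the neural crest. Each library was a pool of 2 embryos, so no comparison below has a replicate check and no test between genotypes could be made. Intervals in brackets are 95% intervals and cover counting error only.

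GABA is the main inhibitory transmitter of the brain. Gad1 and Gad2 make it from glutamate, and the transporter encoded by Slc32a1 loads it into vesicles. In the midbrain and the neighbouring rhombomere 1, Gata2, Gata3, Tal1, Tal2, Helt and Sox14 direct or mark inhibitory fates. Lhx1, Lhx5, Pax2 and Ptf1a take this role in hindbrain and cerebellum, and Dlx genes in the forebrain. Tfap2a and Tfap2b are themselves known in inhibitory neurons of the hindbrain and cerebellum that descend from Ptf1a-positive progenitors.

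To show the regulatory sequence next to 3 of the genes that define these cells and their main subsets, the stretch from 250 bases before to 50 bases after a RefSeq transcription start is printed 5′ to 3′, from GRCm38.p6. Gad2 (chr2:22622077-22622376, plus strand) is a gate gene, Gata3 (chr2:9878551-9878850, minus strand) is a selector of midbrain inhibitory neurons, and Otp (chr13:94875386-94875685, plus strand) encodes a homeodomain protein of hindbrain and hypothalamic neurons. Capitals mark matches to the AP-2 motif GCCNNNGGC, which reads the same on both strands.
Gad2: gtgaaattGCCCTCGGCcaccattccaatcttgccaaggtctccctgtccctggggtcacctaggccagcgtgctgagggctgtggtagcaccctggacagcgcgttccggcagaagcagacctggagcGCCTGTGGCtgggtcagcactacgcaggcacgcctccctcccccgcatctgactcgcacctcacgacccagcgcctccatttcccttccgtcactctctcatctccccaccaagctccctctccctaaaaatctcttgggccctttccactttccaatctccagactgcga
Gata3: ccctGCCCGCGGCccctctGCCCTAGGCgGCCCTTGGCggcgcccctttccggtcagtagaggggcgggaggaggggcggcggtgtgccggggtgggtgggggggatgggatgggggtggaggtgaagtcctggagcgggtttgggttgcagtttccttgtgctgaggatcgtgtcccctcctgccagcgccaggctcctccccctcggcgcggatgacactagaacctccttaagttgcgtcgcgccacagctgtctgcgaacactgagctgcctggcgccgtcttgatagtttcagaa
Otp: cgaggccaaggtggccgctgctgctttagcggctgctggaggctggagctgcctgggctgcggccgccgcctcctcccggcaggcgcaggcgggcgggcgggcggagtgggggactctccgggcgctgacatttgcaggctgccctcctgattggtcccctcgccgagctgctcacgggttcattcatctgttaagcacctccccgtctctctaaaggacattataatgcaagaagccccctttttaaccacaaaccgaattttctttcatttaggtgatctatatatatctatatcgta
The Gad2 stretch held 2 matches, that of Gata3 held 3 and that of Otp held 0. Of all 32851 such promoters, 16.6% held the motif, and of the promoters of genes with 100 or more UMIs in the inhibitory neurons, 25.2% did. It stood in 25.8% of the promoters of genes that were 1.5-fold or more higher in the mutant neurons, and in 23.9% of those 1.5-fold or more lower, next to that 25.2%. A match describes the letters only, and no binding was measured here.

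The identity of the cells was checked against genes that took no part in the choice. Lhx1, a LIM homeodomain gene of inhibitory neurons, was present in 84.2% of the control and 87.6% of the mutant inhibitory neurons. In excitatory neurons, taken as neurons past the same exclusions with no Gad1, Gad2 or Slc32a1 UMI and at least 1 UMI of the glutamate transporter gene Slc17a6, the Lhx1 shares were 26.2% and 29.2%. In mesenchyme, which should lack Lhx1, they were 0.717% and 0.782%. Otp was present in 23.8% and 19.9% of inhibitory neurons, against 2.07% and 3.37% of excitatory neurons. With every cell thinned to 5000 UMIs, Lhx1 was present in 78.6% and 86.2% of inhibitory and in 21% and 24.6% of excitatory neurons. Most members thus carried Lhx1, while Otp marked a minority. Both shares stood above those in excitatory neurons, and that of Lhx1 also above that in mesenchyme. This did not hold for a subset described below, the Dlx cells, with Lhx1 in 23.1% of control and 13.0% of mutant cells.

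The transmitter genes themselves set the membership and are given as a description. Gad2 was measured at 327 counts per 1000000 UMIs (CPM) in the control and 328 CPM in the mutant neurons, Gad1 at 110 and 106 CPM, and Slc32a1 at 144 and 163 CPM. The median cell held 6 UMIs of the 3 genes together in either library, and 79.2% of control and 74.1% of mutant cells held UMIs of at least 2 of the 3 genes. At the edge of the rule, 14 control and 37 mutant cells had exactly 1 UMI. Lhx1 was present in 71.4% and 67.6% of these cells, in 28.5% and 27.3% of the 506 and 830 neurons just outside with no such UMI, and in 84.8% and 91.8% of those with 3 or more. Mesenchyme gave a measure of stray RNA, with a UMI of the 3 genes in 0.280% of 3210 control and 0.414% of 2175 mutant cells. Slc17a6 was found in 7 control and 18 mutant inhibitory neurons, 6.93% and 7.17%.

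Depth was similar in both libraries. The control inhibitory neurons held 1138735 UMIs in all, with a median of 10290 UMIs and 3504 genes per cell, and the mutant ones 2751007 UMIs, with medians of 9621 UMIs and 3398 genes. Scrublet called 1 control and 4 mutant members doublets. The libraries shared 6 barcodes, none of which was a member. Among markers of other cells, 9 mesenchyme genes summed to 25.5 and 23.3 CPM against 1286 and 1055 CPM in the other kept cells. Glia genes, 6 in number, summed to 134 and 158 CPM against 320 and 426 CPM in those other cells, with the defining genes Foxd3 and Gfra3 at 0 in both libraries. The 9 sensory ganglion genes summed to 58.8 and 52.7 CPM against 164 and 145 CPM there, and the part of these sums in the results was not tested. Blood and vessel genes summed to 14.9 CPM in the control and 1.45 CPM in the mutant, against 862 and 4.15 CPM in the other kept cells. Xist was detected in 100 of 101 control and 1 of 251 mutant inhibitory neurons, and Y-linked genes in 0 control and 199 mutant neurons, so that genotype and sex cannot be told apart.

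Inhibitory neurons took a larger share of the mutant library. They made up 1.80% of 5625 control cells [1.46, 2.18] and 4.49% of 5587 mutant cells [3.96, 5.07], which is 2.50-fold more and a difference of 2.70 percentage points [2.05, 3.36]. Excitatory neurons differed in the same direction, with 145 control and 267 mutant cells, or 2.58% and 4.78%. The share of rhombic-lip and dorsal neurons was 4.00% and 5.6%, and that of sensory ganglion neurons 2.13% and 0.609%. All neurons together, by Elavl3 and Stmn2, were 18.1% of the control and 28.0% of the mutant library.

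The denominator set the size of the difference. Of all neurons, 9.93% were inhibitory in the control and 16% in the mutant, a difference of 6.09 points [3.40, 8.69]. Of the neurons that passed every gate other than the GABA genes, 16.6% of 607 and 23.2% of 1081 were inhibitory, a difference of 6.58 points [2.52, 10.5]. Set against excitatory neurons alone, inhibitory neurons were 41.1% and 48.5% of both kinds, and the interval of that difference, 7.4 points [-0.380, 15.0], included 0. Because unequal depth can change who passes a gate, the rule was also applied after thinning to 5000 UMIs. It then found 89 of 5504 control and 228 of 5414 mutant cells, 1.62% and 4.21%, leaving out 121 control and 173 mutant cells of lower depth. The sort and the dissection set how many brain cells entered each library, and their part in these shares was not tested.

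**Figure D1:**
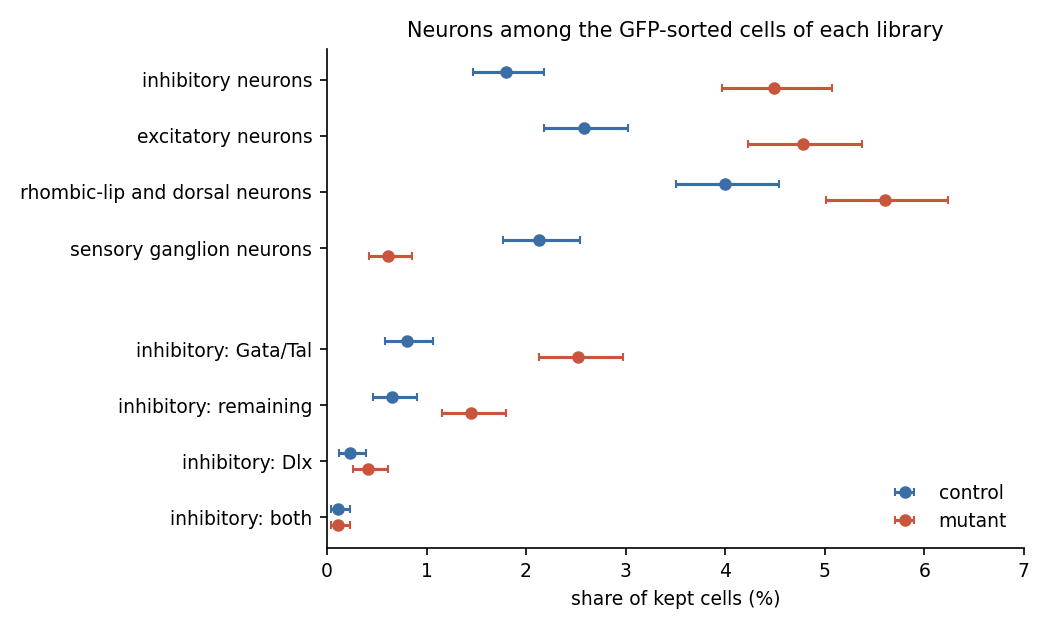
Share of kept cells (%, x axis) for 4 kinds of neuron and, under them, for the subsets of the inhibitory neurons described in the next paragraphs, in the control (blue) and mutant (red) library, with exact 95% intervals for counting error. Inhibitory neurons were at 1.80% and 4.49%, Gata/Tal cells at 0.80% and 2.52%, and sensory ganglion neurons, at 2.13% and 0.609%, were the only kind of the 4 with the lower share in the mutant library.

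The inhibitory neurons were a mixture of brain regions. They were divided, after their values were seen, by any UMI of Gata2, Gata3, Tal1 or Tal2 (Gata/Tal cells), by any UMI of Dlx1, Dlx2, Dlx5, Dlx6 or Dlx6os1 (Dlx cells), by both, or by neither. The genes of the division are therefore no finding. Gata/Tal cells numbered 45 in the control and 141 in the mutant library, Dlx cells 13 and 23, cells with both 6 and 6, and the remaining cells 37 and 81. Genes of position that the division did not use differed in their detection between the subsets. In Gata/Tal cells, Otx1 or Otx2, which mark midbrain and forebrain, were present in 84.4% of control and 83.7% of mutant cells, and any of the listed Hox genes, which mark hindbrain, in 8.89% and 6.38%. Remaining cells had the opposite pattern, with Otx1 or Otx2 in 10.8% and 11.1% and a Hox gene in 29.7% and 35.8%. In Dlx cells, Otx1 or Otx2 were present in 7.69% of control and 34.8% of mutant cells and a Hox gene in 0 and 8.70%.

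The leading genes of each subset, ranked by the lower of the ratios in both libraries against the other subsets, with cells of both kinds left out, were named as a description. Gata/Tal cells were led by Nrtn, a neurotrophic ligand, Emx2, Sox14, Foxa2 and the antisense gene Six3os1. Sox14 had 90 UMIs in control Gata/Tal cells against 0 in Dlx and remaining cells, and 378 against 0 in the mutant, with 8 and 25 more in the cells with both. Dlx cells were led by Lhx8, with 64 UMIs against 0 in the control and 192 against 5 in the mutant, and Nkx2-1, with 52 UMIs against 0 and 107 against 3, both homeobox genes of the ventral forebrain. The cells with both held a further 19 control and 14 mutant UMIs of Lhx8, and 38 and 15 of Nkx2-1. The remaining cells were led by Otp, with 370 control UMIs against 0 and 587 mutant UMIs against 18, followed by Dbx1, Pax2 and Bhlhe22. The label's own marker Lhx1 followed the subsets. It was present in 97.8% of control and 98.6% of mutant Gata/Tal cells and in 91.9% and 90.1% of the remaining cells, but in 23.1% and 13.0% of Dlx cells, in which Otp had 0 UMIs in either library.

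The excess of the mutant library was found in more than 1 subset. Gata/Tal cells were 0.80% of control and 2.52% of mutant kept cells, 3.15-fold more, and the remaining cells 0.658% and 1.45%, 2.20-fold more. Dlx cells were 0.231% and 0.412%, with a difference whose interval, -0.0419 to 0.413 points, included 0. Among the inhibitory neurons, the Gata/Tal share was 44.6% in the control and 56.2% in the mutant, a difference of 11.6 points whose interval, -0.430 to 23.3 points, included 0. The remaining cells were 36.6% and 32.3% of the members, with an interval of the difference from -16.0 to 6.85 points.

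**Figure D2:**
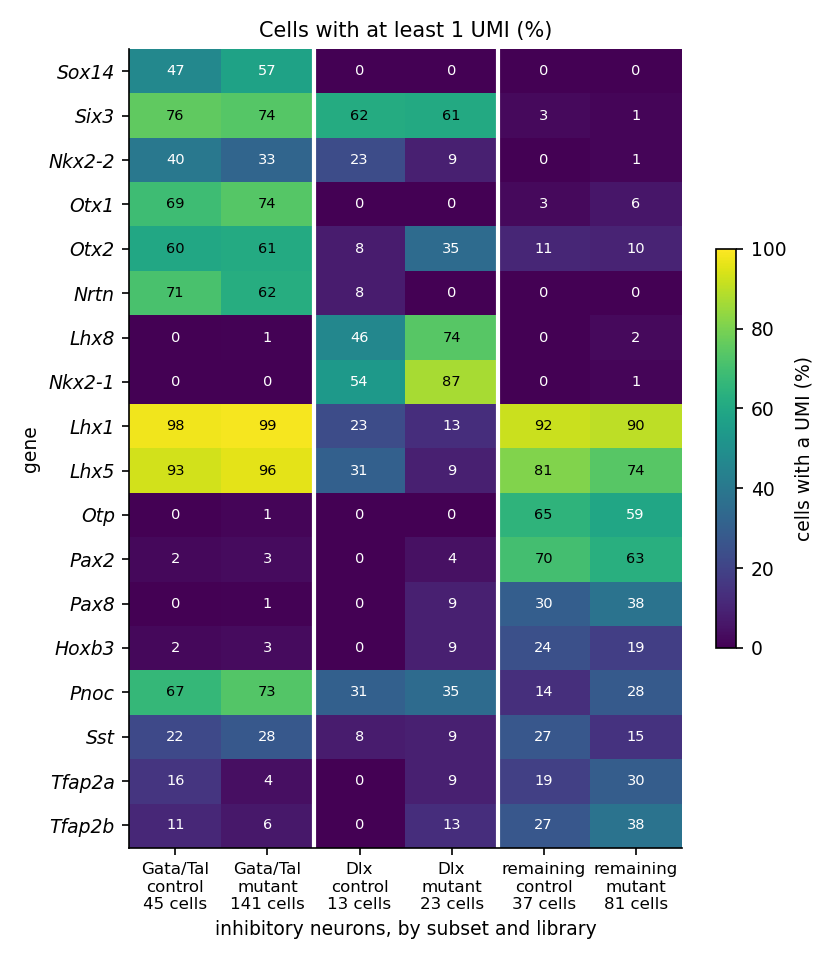
Percent of cells with a UMI (colour and number) for 18 genes (rows) in Gata/Tal, Dlx and remaining inhibitory neurons of the control and mutant library (columns, with their numbers of cells). Sox14 and Otx1 stood out in Gata/Tal cells, Lhx8 and Nkx2-1 in Dlx cells, and Otp and Pax2 in the remaining cells, in either library.

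The targeted genes were examined in the inhibitory neurons before other genes. Tfap2a (ENSMUSG00000021359, GRCm38 chr13:40715302-40738376, minus strand, overlapping 3 genes on the other strand) had 50 UMIs in 15 control and 108 UMIs in 32 mutant cells. Its level was 43.9 CPM in the control and 39.3 CPM in the mutant, a log2 ratio of mutant over control of -0.16 [-0.66, 0.35]. Tfap2b (ENSMUSG00000025927, GRCm38 chr1:19208914-19238576, plus strand) had 249 UMIs in 16 control and 446 UMIs in 44 mutant cells, 219 and 162 CPM, a log2 ratio of -0.43 [-0.66, -0.20]. In excitatory neurons the log2 ratios were -0.70 for Tfap2a and -1.21 for Tfap2b. A 3′ count at the level of a gene does not tell a transcript of an intact floxed allele from one of a recombined allele. The Tfap2a level was thus not distinguishable between the libraries at this depth, and neither gene was absent from the mutant neurons.

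The Tfap2b counts were carried by few cells. Control cells with exactly 1 UMI of the GABA genes held 176 of the 249 control UMIs, in 8 of 14 cells, and the corresponding mutant cells 160 of 446, in 14 of 37 cells. Cells with a Slc17a6 UMI held 120 Tfap2b UMIs in each library, and a single cell held 56 in the control and 79 in the mutant. Among cells with at least 2 UMIs of the GABA genes, Tfap2b was at 74.0 CPM in the control and 121 CPM in the mutant, and the log2 ratio became 0.71. It was 0.059 without cells with a Slc17a6 UMI and -0.053 in thinned cells, so no direction is given for Tfap2b. The division by subset showed where the 2 genes were found. In Gata/Tal cells Tfap2a had 17 control and 11 mutant UMIs, 31.5 and 7.17 CPM, a log2 ratio of -2.14 [-3.38, -0.96], and was present in 15.6% and 4.26% of cells. In the remaining cells Tfap2a was present in 18.9% and 29.6% of cells and Tfap2b in 27.0% and 38.3%. The Tfap2b level there was 387 CPM in the control and 306 CPM in the mutant, a log2 ratio of -0.34 [-0.63, -0.05], and that of Tfap2a 82.1 and 102 CPM, a ratio of 0.31 [-0.28, 0.94]. Both genes were detected together in 13 control and 30 mutant inhibitory neurons, 12.9% and 12%.

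Across genes, 5752 had 100 or more UMIs in the inhibitory neurons of both libraries summed. Of these, 135 (2.35%) were 1.5-fold or more higher in the mutant and 76 (1.32%) were 1.5-fold or more lower, and the interval left out 0 for 113 and 74 of them. The median log2 ratio over the 5752 genes was -0.01. In excitatory neurons, 107 (1.59%) and 84 (1.25%) of 6720 genes were past the same fold. For the gene lists below, a gene was called when it had 20 or more UMIs, differed 1.5-fold or more and had an interval that left out 0, and of 10108 such genes 282 (2.79%) were called higher and 189 (1.87%) lower.

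The 2 genes with the highest ratios were higher in inhibitory neurons, in excitatory neurons and in the other kept cells alike. Arhgap6 (GRCm38 chrX:168795099-169304435), a GTPase activating protein, had 1 control and 211 mutant UMIs, 0.878 and 76.7 CPM, and Gm15261 (chrX:169037674-169106536), annotated antisense within it, had 0 and 505 UMIs. Gm15261 was at least 69.7-fold higher in the mutant, with the control set to a floor of 3 counts per library. The Arhgap6 log2 ratio was 6.45 in inhibitory and 6.26 in excitatory neurons. Since both genes lie on X and overlap on opposite strands, they can be told apart neither from each other by their counts nor from the sex of the embryos. Scg5, which encodes a secretory granule chaperone, was at 92.2 CPM in the control and 257 CPM in the mutant inhibitory neurons (105 and 708 UMIs), a log2 ratio of 1.48 [1.18, 1.79]. It had ratios of 1.26 in excitatory neurons and 1.95 in all other kept cells.

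A further 5 of the 12 highest genes were near their control level or below it in excitatory neurons. The progenitor gene Sox2 was at 48.3 CPM in the control and 108 CPM in the mutant, a log2 ratio of 1.16 [0.74, 1.6] against 0.03 in excitatory neurons. Lhx2, a LIM homeodomain gene that most excitatory neurons carried, was at 23.7 and 68.7 CPM, a ratio of 1.53 [0.95, 2.17], and was found in 6 control and 25 mutant inhibitory neurons. Lamp5, which encodes a membrane protein of inhibitory neurons, was at 32.5 and 89.1 CPM, a ratio of 1.45 [0.95, 1.99], in 5 and 40 cells, and a ratio of 2.50 without the cell of each library that held most of its UMIs. The replication gene Pclaf, which overlaps Trip4 on the other strand, had a ratio of 1.56 [0.97, 2.20], and the replication-dependent histone gene Hist1h2ap one of 2.83 [1.87, 3.99]. Hist1h2ap has near-identical copies, rested on 9 control and 155 mutant UMIs, and had a ratio of 0.50 in thinned cells. In all other kept cells Sox2 was at 0.60, Lhx2 at 0.66 and Lamp5 at 0.89. Pclaf was at -0.09 and Hist1h2ap at -0.70 in those cells. The other kept cells are a mixture of kinds, and all neurons were 18.1% of the control and 28.0% of the mutant library. The neuron genes Elavl3 and Stmn2 were at 0.49 and 0.56 in that mixture. The part of its make-up in any ratio given for the other kept cells was not tested. The other 4 of the 12 highest were Nkx6-2 at 1.49, Eif3j1 at 1.29, and Chst1 and Cartpt, both at 1.20. In that order, they were at 0.61, 0.47, 0.85 and 0.51 in excitatory neurons. In all other kept cells they were at 1.36, 0.76, 0.29 and 1.05. Nkx6-2 overlaps Inpp5a and had ratios of 0.43 when every cell was weighted equally and of 0.59 in thinned cells, and Eif3j1 overlaps Spg11 and has a near-identical copy.

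The lowest genes included 4 transcription factor genes known from forebrain neurons. Dlx5 was at 69.4 CPM in the control and 21.1 CPM in the mutant, a log2 ratio of -1.72 [-2.23, -1.21], in 19 cells of either library. Pax6 had a ratio of -1.33 in 8 and 9 cells, Dlx1 of -1.04 in 15 and 19 cells, and Sp9 of -0.96 in 22 and 39 cells. Dlx5 was thus present in 18.8% of control and 7.57% of mutant members. Of the Sp9 UMIs, 63 in the control and 78 in the mutant, the cells with both Gata/Tal and Dlx UMIs held 23 and 0. In all other kept cells Dlx5 was at -0.60 and Dlx1 at -0.32, but Pax6 at 0.49 and Sp9 at 0.57. Among the lowest were also genes of general cell function. Cap1, an actin regulator, was at 77.3 and 36.4 CPM, a ratio of -1.09 [-1.52, -0.66]. Its ratio was -0.80 in excitatory neurons and -0.63 in all other kept cells. Gpr153 had a ratio of -1.42, and Impact, Mtmr14, Timm17a and Trappc13 had ratios from -0.92 to -0.90. Gpr153 was at -0.53 in excitatory neurons and -0.14 in the other kept cells, and Timm17a at -0.41 and -0.35. Impact, Mtmr14 and Trappc13 were at -0.20 to 0.04 in excitatory neurons and at 0.02 to 0.05 in the other kept cells.

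**Figure D3:**
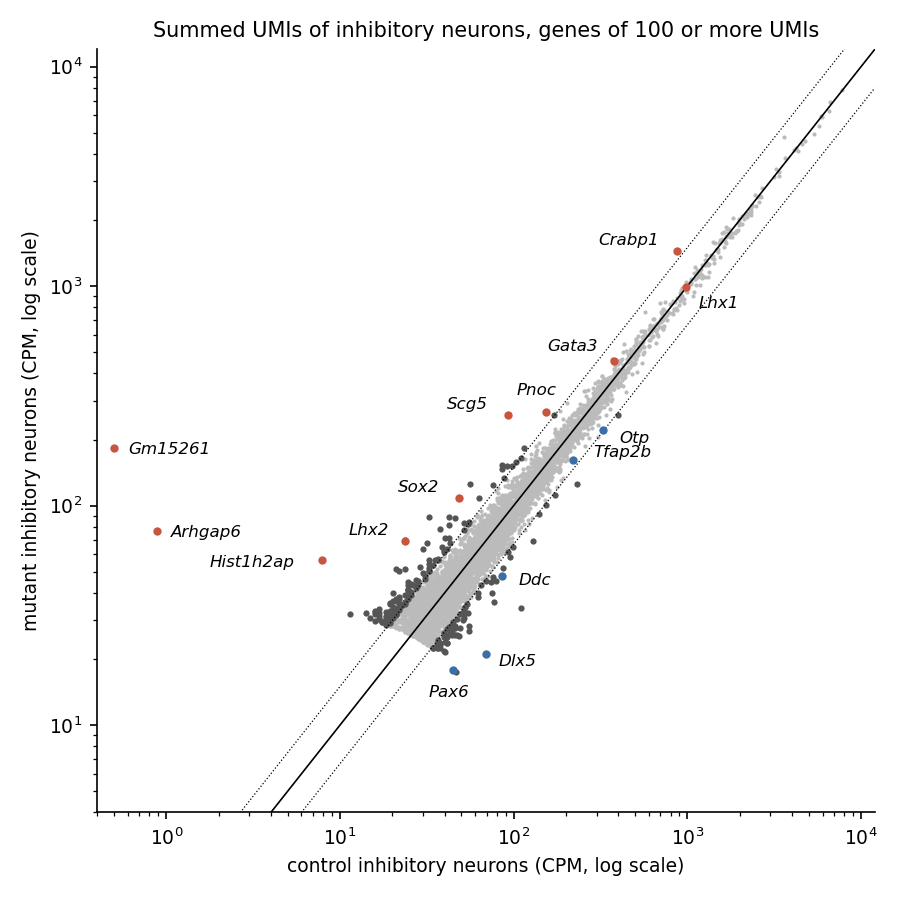
Level in the mutant (y axis) against the control (x axis) inhibitory neurons, both in CPM on log axes, for the 5752 genes with 100 or more UMIs; dotted lines mark 1.5-fold, dark points lie past it, and Gm15261, at 0 in the control, is drawn at 0.5 CPM. The points past the lines were 135 above and 76 below, with Arhgap6 and Gm15261 far above and Dlx5 below.

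Selector genes of midbrain and rhombomere 1 inhibitory neurons were at or above the control level in the mutant. Of the 11 of 12 listed genes with 20 or more UMIs, 2 were called higher and 0 lower, with a median log2 ratio of 0.27 against 0.00 over all 10108 genes. Sox14, a marker of midbrain and diencephalic inhibitory neurons, was at 86.1 CPM in the control and 146 CPM in the mutant, a ratio of 0.77 [0.45, 1.10]. It was present in 22.8% of control and 33.5% of mutant cells. Helt, which directs midbrain inhibitory fate, had 2 UMIs in 1 control cell and 49 UMIs in 16 mutant cells, a ratio of 3.34 [1.41, 6.43]. The selectors that lead this group were close to their control level. Gata3 was at 377 and 455 CPM, a ratio of 0.27 [0.11, 0.43], Tal2 at 209 and 252 CPM, a ratio of 0.27 [0.05, 0.49], Gata2 at 0.06 and Tal1 at 0.03. When the 4 subsets were given equal shares in both libraries, Sox14 was at 0.54, Gata3 at 0.04, Tal2 at 0.02, Gata2 at -0.15 and Tal1 at -0.21, so that the ratios of Gata2 and Tal1 changed sign.

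Hindbrain and cerebellar selectors stood close to the control level on the median. Of 14 of 21 listed genes with 20 or more UMIs, 0 were called higher and 1 lower, with a median of -0.13. Lhx1 had 1117 control and 2723 mutant UMIs, 981 and 990 CPM, a ratio of 0.01 [-0.09, 0.11]. Lhx5, its partner in hindbrain and cerebellar inhibitory neurons, was at 393 and 368 CPM, a ratio of -0.10 [-0.26, 0.07], and Pax2 at 85.2 and 73.4 CPM, a ratio of -0.21 [-0.57, 0.15]. Ptf1a, the progenitor selector of this lineage, had 0 UMIs in both libraries. The Otp level was 325 CPM in the control and 220 CPM in the mutant, a ratio of -0.56 [-0.75, -0.37], which is just under 1.5-fold and became -0.38 with equal subset shares. Bhlhe22, a basic helix-loop-helix gene, was the single called gene, at 45.7 and 25.8 CPM, a ratio of -0.82 [-1.36, -0.28].

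Of the forebrain selectors, 4 Dlx genes were at lower levels in the mutant inhibitory neurons. Of 6 of 7 listed genes with 20 or more UMIs, 4 were called lower and 0 higher, with a median of -0.86, namely Dlx1, Dlx2 at -0.68, Dlx5 and Dlx6 at -1.45. With equal subset shares these ratios were -0.39 for Dlx1, -0.039 for Dlx2, -1.12 for Dlx5 and -0.88 for Dlx6, and that of the antisense gene Dlx6os1 changed sign, from -0.56 to 0.046. In all other kept cells Dlx1, Dlx2, Dlx5 and Dlx6os1 were at -0.32, -0.45, -0.60 and -0.61. Those cells included 3210 control and 2175 mutant mesenchyme cells. Dlx5 had 4987 control and 3015 mutant UMIs in the other kept cells, against 9 and 2 in excitatory neurons. The part of the differing number of mesenchyme cells in these ratios was not tested. Lhx6, a gene of ventral forebrain interneurons, had a ratio of 0.66 [-0.32, 1.77] in the inhibitory neurons, and of -0.62 in thinned cells. The cells with both Gata/Tal and Dlx UMIs, 6 in each library, carried a part of these differences. They held 23 of 63 control and 1 of 74 mutant Dlx1 UMIs, and 18 of 59 and 4 of 89 for Dlx2. For Dlx5 they held 19 of 79 and 0 of 58, and for Dlx6os1 21 of 77 and 0 of 126. Within the 13 control and 23 mutant Dlx cells, Dlx5 had a ratio of -0.83 [-1.38, -0.29], Dlx1 of 0.08 [-0.49, 0.68] and Dlx2 of 0.27 [-0.29, 0.84], while Lhx8 had one of 0.80 [0.38, 1.23]. Nkx2-1 was present in 53.8% of these control and 87.0% of these mutant cells.

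**Figure D4:**
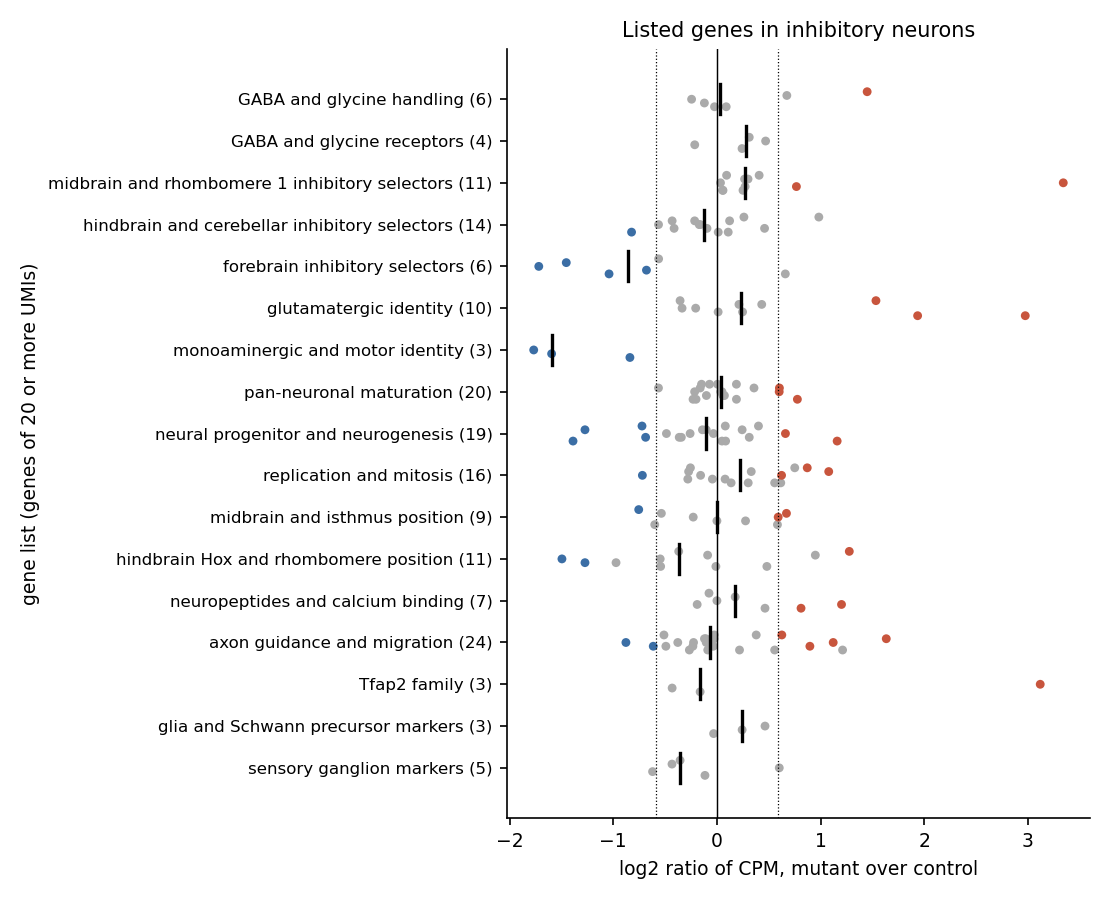
Log2 ratio of mutant over control CPM (x axis) of each listed gene with 20 or more UMIs in the inhibitory neurons, 1 row per gene list, with the list median as a black bar, genes called higher in red, genes called lower in blue, others in grey, and dotted lines at 1.5-fold. The forebrain selectors sat lowest of the inhibitory selector lists, with a median of -0.86, against 0.27 for midbrain and -0.13 for hindbrain selectors.

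Genes of neuronal function and maturation were mostly at the control level. Of 20 pan-neuronal genes, 3 were called higher, with a median of 0.04. These were Snap25, of the synaptic release machinery, at 63.2 and 108 CPM, a ratio of 0.78 [0.40, 1.17], the calcium sensor Syt1 at 0.60 [0.28, 0.94] and the microtubule protein gene Mapt at 0.60 [0.37, 0.84]. Among 6 genes of GABA and glycine handling outside the gate, Slc12a5 was called higher on 5 and 33 UMIs, a ratio of 1.45 [0.08, 3.16]. This gene encodes the chloride exporter that makes GABA inhibitory. Of 4 receptor genes, 0 were called.

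Neuropeptide genes differed from each other. Pnoc, the precursor of nociceptin, was at 153 CPM in the control and 268 CPM in the mutant, a ratio of 0.81 [0.57, 1.06], and was found in 41.6% and 54.6% of cells. It was at 0.58 with equal subset shares. Cartpt, the precursor of CART peptides, was at 22 and 50.5 CPM, a ratio of 1.20 [0.58, 1.88], in 9 and 22 cells. Sst, the precursor of somatostatin, was at 321 and 282 CPM, a ratio of -0.19 [-0.37, -0.01], and was found in 21.8% and 21.9% of cells. Without the cell with most Sst UMIs in each library the ratio turned to 0.24. The other 4 measured genes of this list were not called.

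Genes of position were called in either direction. Otx2 was at 115 and 183 CPM, a ratio of 0.67 [0.39, 0.96], and Otx1 at 110 and 165 CPM, a ratio of 0.59 [0.30, 0.89], and both were called higher. With equal subset shares they were at 0.48 and 0.41. Pax3, a dorsal neural tube gene, was called lower, at -0.75 [-1.39, -0.11], and the median of the 9 midbrain and isthmus genes was 0.00. Of 11 hindbrain Hox and rhombomere genes, Hoxd4 was called higher on 7 and 41 UMIs and Hoxa3 and Hoxa4 lower on 14 control UMIs each, with a list median of -0.37.

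Progenitor and cycle genes were mixed. Sox2 and Sox9 were called higher, and Notch1 at -1.27, Neurod4 at -1.39, Neurod1 at -0.72 and Neurog1 at -0.69 were called lower, of 19 genes with a median of -0.10. Sox9 had a ratio of 0.66, and of -0.12 among cells with at least 2 UMIs of the GABA genes, and Notch1 one of -0.08 in thinned cells. Of 16 replication and mitosis genes, Top2a at 1.08 [0.63, 1.56], Tyms at 0.87 and Rrm2 at 0.62 were called higher and the cyclin gene Ccnd2 lower at -0.72, with a median of 0.22. These 16 genes summed to 962 CPM in the control and 1113 CPM in the mutant inhibitory neurons, against 5654 and 5393 CPM in the other kept cells. Top2a was present in 9.90% of control and 15.1% of mutant inhibitory neurons, and its ratio was 0.37 among cells with at least 2 UMIs of the GABA genes.

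Genes of other transmitter fates were examined because a few members carried them. Of 10 glutamatergic identity genes, 3 were called higher, namely Lhx2, Lhx4 on 2 and 38 UMIs and Barhl2 on 4 and 37 UMIs, and 0 lower. The ratio of Lhx4, a LIM homeodomain gene, was -1.36 in thinned cells, and that of Barhl2, a homeobox gene of excitatory neurons, was -0.54 without cells with a Slc17a6 UMI. The whole list of 20 genes summed to 1596 CPM in the control and 1567 CPM in the mutant inhibitory neurons, against 4584 and 4641 CPM in excitatory neurons. All 3 measured monoaminergic and motor genes were called lower. These were Th and Ddc, enzymes of dopamine synthesis, at -1.77 [-2.63, -0.93] and -0.84 [-1.23, -0.45], and the transcription factor gene Nr4a2 at -1.59. The signs of 2 of these 3 genes changed under another choice of cells. Ddc was at 0.026 in thinned cells, and Nr4a2 at 0.96 in thinned cells and 2.11 without cells with a Slc17a6 UMI.

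Of 24 axon guidance and migration genes, 4 were called higher and 2 lower, with a median of -0.07. Robo2, a receptor for Slit, was at 23.7 CPM in the control and 51.6 CPM in the mutant, a ratio of 1.12 [0.52, 1.77]. The semaphorin receptor gene Nrp2 had a ratio of 0.90, the netrin receptor gene Unc5d 1.63 on 4 and 30 UMIs, and the ephrin gene Efna5 0.63. The Eph receptor gene Epha3 was lower at -0.61 [-0.91, -0.32], and Dab1, of the reelin pathway, at -0.88 [-1.41, -0.34]. The third measured Tfap2 gene, Tfap2d, was called higher on 1 and 21 UMIs, and its ratio was 3.12, or 0.31 without cells with a Slc17a6 UMI.

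Within Gata/Tal cells, most but not all of which carried Otx1 or Otx2 in both libraries, several of these ratios were also seen. Sox14 had a ratio of 0.56, Otx1 of 0.45, Otx2 of 0.48, Gata3 of 0.10 and Scg5 of 1.6. Sox2 was at 0.98, Lamp5 at 1.90 and Ddc at -0.79. In the remaining cells, Lhx5 was at -0.68, Bhlhe22 at -0.68 and Sst at -0.97, while En1, a gene of the midbrain and hindbrain boundary, was at 0.72 and Lamp5 at 1.19. Lhx5, near its control level over all members, was therefore at different ratios by subset, and this was not tested.

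Inhibitory and excitatory neurons were set side by side to find genes whose ratio differed most between them. The genes furthest in the positive direction, of those with 100 or more UMIs in both kinds, were Hist1h2ap, Lamp5, Cdkn1a, Lhx2, Top2a, Pclaf, Robo2 and Chl1. Lamp5 was at 1.45 in inhibitory and -0.58 in excitatory neurons, Cdkn1a, a cell cycle inhibitor, at 1.05 and -0.93, and the cell adhesion gene Chl1 at 1.09 and -0.17. In the negative direction were Ddc, Hes5, Cog8, Hdac11, Cxxc1, Pcdh17 and Grb10. Hes5, a Notch target, was at 0.08 in inhibitory and 1.78 in excitatory neurons. Grb10, an imprinted adaptor gene, was at -0.52 and 0.74. The 2 comparisons rest on the same 2 libraries, and no difference between them could be tested.

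**Figure D5:**
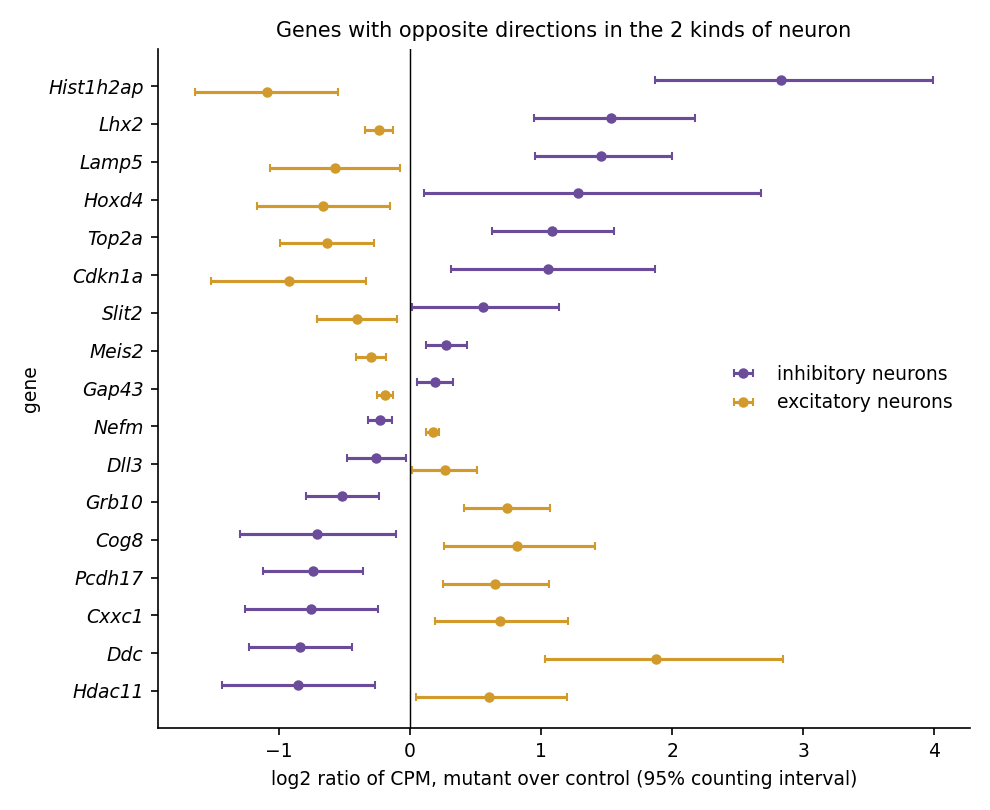
Log2 ratio of mutant over control CPM (x axis) in inhibitory and excitatory neurons, with 95% intervals for counting error, for the 17 genes among the listed and ranked ones whose intervals lay on opposite sides of 0. Lamp5 was at 1.45 and -0.58, and Ddc at -0.84 and 1.88. Part of the 17 had been ranked by the difference between the 2 kinds of neuron, which favours opposite signs.

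Some genes distinguished inhibitory from excitatory neurons in both libraries. The Gm14204 transcript, which starts next to Slc32a1 on the opposite strand, had 207 control UMIs in inhibitory and 1 in excitatory neurons, and 554 and 0 in the mutant. Six3os1 and Six3 overlap on opposite strands and are therefore uncertain as separate genes. Nkx2-2, a homeobox gene of the ventral neural tube, had 64 control and 165 mutant UMIs in inhibitory neurons, a ratio of mutant over control of 0.09. Nrtn was at 54.4 and 82.2 CPM, a ratio of 0.59 [0.18, 1.02], and Rpp25, which encodes a subunit of RNase P, at 0.47 [0.11, 0.84]. Tal1, Gata3, Lhx8 at 0.07, Dlx6os1 and Dlx2 were also among the genes highest over excitatory neurons. The gene with the most UMIs among those past 1.5-fold, chosen after its values were seen, was Crabp1, a retinoic acid binding protein. Crabp1 was at 876 CPM in the control and 1440 CPM in the mutant inhibitory neurons, a ratio of 0.72, against 0.11 in excitatory neurons and -0.28 in the other kept cells.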

How the data were processed

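UMI counts per gene and barcode of 1 control and 1 mutant library were used as deposited. The authors made these counts from 10x 3′ libraries with Cell Ranger 6.0.0 and mm10. The strand setting is not given in the sources used here, so overlapping genes on opposite strands are uncertain, as are near-identical copies. Barcodes with 200 to 7500 genes and at most 10% mitochondrial UMIs were kept. Doublets were called with Scrublet (scanpy 1.11.5) and kept. UMIs were summed over the members of a library and given as CPM. Log2 ratios have exact conditional binomial intervals, and shares exact Clopper-Pearson intervals. The ratio steps were tested on simulated sums of independent UMIs, which lack the clumping of UMIs in few cells seen here. Python 3.11.15, scipy 1.17.1, and edgeR 4.0.16 in R 4.3.3 (for TMM scaling as an alternative) were used. Sets of cells, gene lists and members were chosen with earlier results of these data known. Named genes were those of the lists, the 12 highest and 12 lowest ratios, the 12 highest in inhibitory over excitatory neurons, and the 8 most positive and 8 most negative differences of ratios between both, each over genes of 100 or more UMIs. Gate, sex-linked Xist, Tsix and Y-linked, haemoglobin and mitochondrial genes were not ranked. A few genes were taken out of the lists and rankings and are not reported here. The files held 32285 genes, of which 32235 were found in GENCODE M21.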

Additional observations from a re-analysis of the deposited data

Results flagged for a closer look

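Several genes had log2 ratios of mutant over control of opposite sign in inhibitory and excitatory neurons, each past its counting interval. Of these, with the inhibitory value given before the excitatory one, Lhx2 was at 1.53 and -0.24, Top2a at 1.08 and -0.63, Hoxd4 at 1.28 and -0.67, Hist1h2ap at 2.83 and -1.09, Lamp5 at 1.45 and -0.58, Cdkn1a at 1.05 and -0.93, and Slit2, a midline guidance ligand, at 0.56 and -0.41. Meis2 was at 0.28 and -0.30, and Gap43, a growth cone gene, at 0.19 and -0.19. The inhibitory value turned to -0.13 for Slit2 in thinned cells and to -0.096 for Gap43 with equal weight per cell. In the other direction, Ddc was at -0.84 and 1.88, Cog8 at -0.71 and 0.82, Hdac11 at -0.86 and 0.60, Cxxc1 at -0.76 and 0.69, Pcdh17 at -0.74 and 0.65, Grb10 at -0.52 and 0.74, Dll3, a Notch ligand, at -0.26 and 0.26, and the neurofilament gene Nefm at -0.23 and 0.17. With 1 library per group these differences were not tested. Part of the genes above had been ranked by the difference between the 2 kinds of neuron, which favours opposite signs. The share of all genes with such signs is not given here. Y-linked transcripts, which no comparison used, were found in 79.3% of the mutant and 0 of the control inhibitory neurons.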

How the results depend on the processing

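The share of inhibitory neurons differed by 2.28 to 2.75 points under every alternative run, and the ratio of Tfap2a stayed between -0.40 and 0.02. The ratio of Tfap2b, -0.43 as reported, was -0.053 in cells thinned to 5000 UMIs, 0.71 with at least 2 UMIs of the GABA genes and 0.059 without cells with a Slc17a6 UMI. Genes 1.5-fold or more higher numbered 70 and lower ones 37 in thinned cells, 623 and 356 at a minimum of 30 UMIs, 17 and 6 at 300 UMIs, and 1597 and 3696 with no minimum. Without the cell with most UMIs of a gene in each library, 218 were higher. That alternative and equal subset shares were chosen after seeing the data. The midbrain median ranged from 0.02 to 0.43 and the hindbrain median from -0.14 to 0.0087. Of 61 genes followed, 12 changed sign under at least 1 alternative. For 2 of these the reported interval left out 0, Dlx6os1 (0.046 with equal subset shares) and Ddc (0.026 in thinned cells). The others were Gata2, Hes5, Lhx1, Lhx6, Lmo1, Nkx2-2, Pax8, Sall3, Six3 and Tal1. Outside these 61, the called genes Sox9, Barhl2, Lhx4 and Nr4a2 also changed sign, as did Tfap2b, Slit2, Gap43 and Sst. The cause was not tested, other than that fewer UMIs or genes enter some of these choices. TMM scaling shifted all ratios by 0.02. No paired analysis was possible because each group was 1 library. Genes of few UMIs, and genes carried by few cells, have wide intervals at this depth, and 13 control Dlx cells allow only a coarse comparison.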
